A study of Mus musculus with 24 samples.

Results

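A set of 9 genes known to respond to loss of nerve input in skeletal muscle, namely Gadd45a, Ncam1, Runx1, Hdac4, Dach2, Hdac9, Cdkn1c, Sh3kbp1 and Agrn, were read in plantaris, a fast hindlimb muscle. They were chosen by symbol, and each matched 1 row of the 47643 genes in the table, so that 9 of 9 were found. All 24 samples came from C57BL/6 mice of wild type genotype, 11 from mice in normal air and 13 from mice given tobacco smoke for 16 weeks; age, sex and hour of collection were not given in the sources used here, and no mouse was denervated. Reads came from the 3′ ends of transcripts (Lexogen QuantSeq), and total counts ran from 2515697 to 4528845 per sample. The 6 muscle fibre markers (Acta1, Ckm, Myh4, Tnnt3, Pvalb and Mylpf) were all tested and together held 131713 to 210681 CPM (counts scaled to a common library total) in air and 138701 to 178255 CPM in smoke. The 4 motor neuron markers were close to the floor, with summed levels of at most 1.92 CPM in air and 1.27 CPM in smoke. In smoke replicates 2, 10, 12 and 13 5 of the 8 tested Schwann cell markers stood above every air sample, and in smoke replicate 6, 3 of these 5 did. Fits without some or all of these samples are given for the members, Hdac5, Trim63, Myh8 and the Schwann markers. The summed markers were also high in air replicate 6, which these fits kept. The titles number the samples, but nothing states that each came from a separate mouse, so the p-values measure the spread between these samples.

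Innervated fibres hold synaptic genes silent outside the endplate through electrical activity. After denervation, the class IIa histone deacetylase Hdac4 accumulates and represses Dach2, itself a repressor of myogenin, a transcription factor that acts through E-boxes and then rises. Hdac9, another deacetylase of that class, couples electrical activity to the silencing of receptor genes. Gadd45a, a stress protein that acts in the nucleus, and Runx1, a transcription factor that limits wasting, are induced strongly in denervated fibres, and the cell adhesion molecule Ncam1 spreads from the synapse over the whole fibre. Agrn encodes agrin, which the nerve releases to cluster acetylcholine receptors. Sh3kbp1 encodes an adaptor protein of receptor endocytosis, and Cdkn1c encodes the cell cycle inhibitor p57.

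For the 4 members with the fewest counts, Gadd45a, Dach2, Runx1 and Hdac9, the 250 bases before an annotated start are shown because they are the sequence on which a myogenin or other E-box factor could act near the promoter. Of several starts, the one with the most E-boxes is shown. Capitals mark the E-box CANNTG, which reads the same on both strands.
Gadd45a (GRCm38.p6, chr6:67037408-67037657, minus strand): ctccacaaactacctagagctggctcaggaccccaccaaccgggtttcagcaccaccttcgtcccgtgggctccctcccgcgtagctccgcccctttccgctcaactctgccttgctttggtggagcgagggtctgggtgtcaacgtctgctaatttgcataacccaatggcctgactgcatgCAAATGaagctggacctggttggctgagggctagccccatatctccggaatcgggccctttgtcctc
Dach2 (GRCm38.p6, chrX:113297260-113297509, plus strand): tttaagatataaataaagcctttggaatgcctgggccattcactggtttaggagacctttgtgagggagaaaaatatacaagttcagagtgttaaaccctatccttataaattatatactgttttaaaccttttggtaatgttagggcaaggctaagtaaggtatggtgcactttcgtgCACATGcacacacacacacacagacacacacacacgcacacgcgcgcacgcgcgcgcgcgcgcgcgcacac
Runx1 (GRCm38.p6, chr16:92826075-92826324, minus strand): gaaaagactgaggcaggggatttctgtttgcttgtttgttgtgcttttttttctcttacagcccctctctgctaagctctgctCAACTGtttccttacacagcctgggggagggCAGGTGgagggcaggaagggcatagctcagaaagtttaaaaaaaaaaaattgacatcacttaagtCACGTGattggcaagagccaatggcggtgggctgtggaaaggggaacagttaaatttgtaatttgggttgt
Hdac9 (GRCm38.p6, chr12:34528890-34529139, minus strand): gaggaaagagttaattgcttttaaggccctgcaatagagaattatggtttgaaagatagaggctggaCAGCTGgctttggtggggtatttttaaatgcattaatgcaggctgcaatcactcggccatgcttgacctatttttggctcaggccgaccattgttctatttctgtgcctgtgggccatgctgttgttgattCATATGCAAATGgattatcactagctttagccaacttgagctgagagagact
These sequences are RefSeq's, and 7 of the 9 members had an entry, with 14 windows in all. An E-box stood in 8 of the 14 windows, against 66.2% of all 32851 windows of that length in the table. The E-box form CAGCTG stood in 2 of the 14, both of them windows of Hdac9, against 13.001% of all windows. A match is a description of the letters, not a binding site, and the counts, read at 3′ ends, do not tell which start a transcript used.

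None of the 9 genes passed a test of the difference between smoke and air. Of the 9, 7 passed the expression filter and 0 were called at an adjusted p under 0.05 by the edgeR quasi-likelihood test, where 195 of 10159 tested genes were called (1.92%; 0.728% higher under smoke, 1.19% lower). The number among the 7 with an unadjusted p under 0.05 was also 0, beside 15.5% of all tested genes. Of their log2 fold changes (smoke over air), 4 were above 0 and 3 below, the median was 0.014, and they ran from -0.07 to 0.22, beside a median of 0.0066 over all tested genes. The values of all 9 overlapped between the groups, and 3 of the 10159 tested genes (0.0295%) did not overlap. The upper limits of the 95% intervals were 1.07-fold for Hdac4, 1.17-fold for Sh3kbp1 and for Agrn, 1.28-fold for Cdkn1c, 1.34-fold for Ncam1, 1.43-fold for Gadd45a and 1.56-fold for Dach2, so larger rises of these transcripts in whole muscle lay outside the intervals. The lower limits ran from 0.688-fold for Gadd45a to 0.908-fold for Sh3kbp1, with Dach2, which is known to fall after denervation, at 0.862-fold. Without smoke replicates 2, 10 and 12, 0 of 7 tested members were called by edgeR or had an unadjusted p under 0.05, and the log2 fold changes ran from -0.13 for Gadd45a to 0.29 for Dach2. The number called was also 0 when replicate 13, or replicates 6 and 13, were left out too. In whole muscle, fewer cells of a type and less RNA per cell cannot be told apart.

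**Figure D1:**
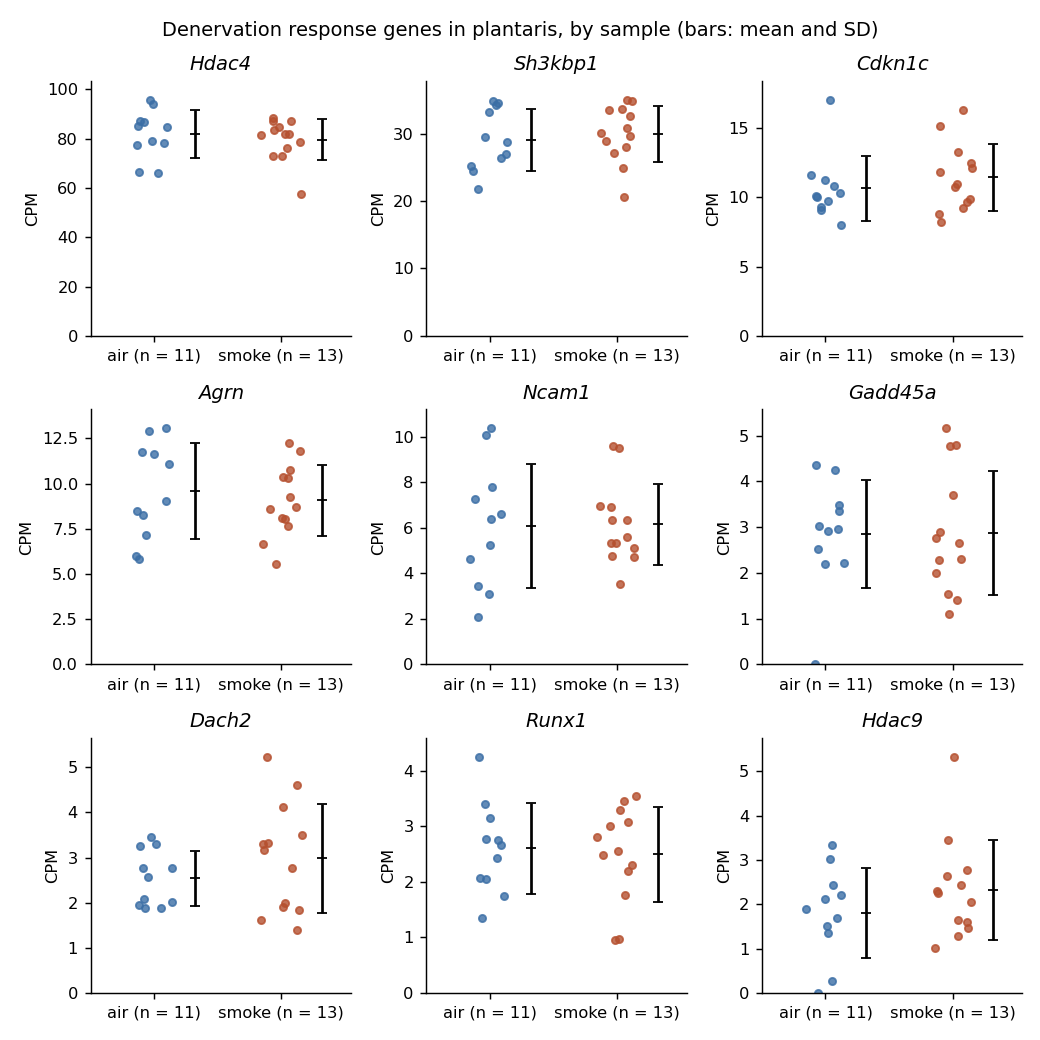
Each panel plots the level of a denervation response gene in CPM on TMM-scaled libraries (vertical axis, from 0) for 11 air and 13 smoke samples, with 1 point per sample and the mean and SD beside them. In every panel the groups overlap, and the 4 lowest genes lie under 6 CPM in every sample.

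The members differed widely in level. Because the kit reads transcript ends, CPM was compared between genes without dividing by length, and differences in how well an end is primed or annotated remain in these levels. Hdac4 was the highest, above 87.7% of tested genes by its mean, and it exceeded Sh3kbp1, the next in order, in 24 of 24 samples. Sh3kbp1 exceeded Cdkn1c in 24 of 24 samples. Cdkn1c was above Agrn in 5 of 11 air samples and 11 of 13 smoke samples, a split between the groups that was not tested. Agrn was above Ncam1 in 11 of 11 air and 11 of 13 smoke samples, and Ncam1 above Gadd45a in 9 of 11 and 11 of 13. The last 4, in the order Gadd45a, Dach2, Runx1 and Hdac9, were not separated from their neighbours, the higher of each pair leading in 11, 13 and 16 of 24 samples.

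Among the deacetylases and their partner, Hdac4 (ENSMUSG00000026313, chromosome 1, 91928779 to 92195699, minus strand, GRCm38) is the class IIa enzyme that rises in denervated muscle and represses MEF2 targets. It had 3153 counts over the air samples and 3528 over the smoke samples. Its level was 66.2, 84.8 and 95.7 CPM (lowest, median, highest) in air and 57.6, 82.1 and 88.3 CPM in smoke. The lowest smoke value lay below the air range and the others within it, 7 of 13 of them above the air mean. The means were 81.9 ± 9.67 CPM (SD, n = 11) and 79.6 ± 8.33 CPM (SD, n = 13), which is -0.04 on the log2 scale (SE 0.069, 95% interval -0.18 to 0.10, edgeR quasi-likelihood, adjusted p = 0.834). This was the narrowest interval of the members.

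Dach2 (ENSMUSG00000025592, chromosome X, 113297510 to 113836386, plus strand), the corepressor through which Hdac4 acts on myogenin, was low. It had 6 to 13 counts per sample in air and 5 to 19 in smoke. The CPM values were 1.88, 2.57 and 3.45 in air and 1.40, 3.17 and 5.23 in smoke (lowest, median, highest). The smoke samples reached both lower and higher than the air samples, with 8 of 13 above the air mean. The log2 fold change was 0.22 (SE 0.21, 95% interval -0.21 to 0.65, edgeR adjusted p = 0.692), the largest of the tested members.

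Hdac9 (ENSMUSG00000004698, chromosome 12, 34047580 to 34917095, minus strand), a relative of Hdac4 whose short splice form MITR lacks the catalytic domain, did not pass the expression filter. It had 70 counts over the air samples and 104 over the smoke samples. The counts ran from 0 (air replicate 6) and 1 (air replicate 7) to 13 in air, and from 4 to 19 (smoke replicate 1) in smoke. In CPM the lowest, median and highest values were 0, 1.89 and 3.34 in air and 1.02, 2.26 and 5.33 in smoke, so that 8 of 13 smoke samples lay above the air mean. The difference of 0.524 CPM (SE 0.439) was within the spread between samples (two-sided permutation p = 0.256, 1 of 2 members tested this way). It was 0.274 CPM without smoke replicate 1 (permutation p = 0.460) and 0.344 CPM without air replicate 6 (permutation p = 0.454). In an edgeR fit with no expression filter, Hdac9 had a log2 fold change of 0.35 (95% interval -0.27 to 0.97, adjusted p = 0.580). Reads at 3′ ends were not assigned to splice forms, so MITR was not analysed here.

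**Figure D2:**
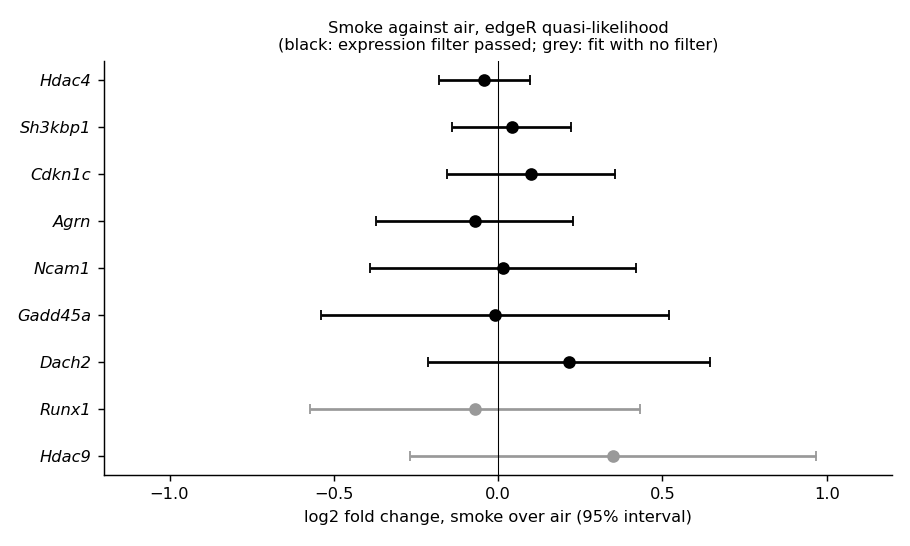
The log2 fold change of each gene, smoke over air (horizontal axis), is drawn as a point with its 95% interval; black marks the 7 genes that passed the expression filter and grey the 2 taken from the fit with no filter. Every interval spans 0, from the narrowest for Hdac4 (-0.18 to 0.10) to the widest for Hdac9 (-0.27 to 0.97).

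The 2 class IIa relatives outside the members were higher than Hdac9 and, in the case of Hdac5, differed between the groups. Hdac5 fell under smoke, from 62.6 ± 10.4 CPM (SD, n = 11) to 50.7 ± 4.64 CPM (SD, n = 13), or by 0.30 on the log2 scale (SE 0.076, edgeR adjusted p = 0.0261), and 0 of 13 smoke samples lay above the air mean. Without air replicate 5 or air replicate 8 this call was lost, with adjusted p up to 0.0549 when samples were left out in turn. It was also lost without smoke replicates 2, 10 and 12 (-0.30, edgeR adjusted p = 0.0596) but not without these and replicate 13 (-0.33, edgeR adjusted p = 0.0319) or these and replicates 6 and 13 (-0.35, edgeR adjusted p = 0.0448). Hdac7 had 24.9 ± 4.23 CPM (air) and 23.99 ± 4.56 CPM (smoke) (log2 fold change -0.06, edgeR adjusted p = 0.851). The log2 ratio of Hdac4 to Hdac5 within a sample averaged 0.39 ± 0.22 in the 11 air samples and 0.64 ± 0.22 in the 13 smoke samples (SD). This ratio was chosen after the values of both genes were seen and is given as a description, with no test; 12 of 13 smoke samples lay above the air mean. Hdac5 was the only gene called in the list of the histone deacetylase and MEF2 axis (1 of 8 tested, lower; median log2 fold change -0.06) and in the list of family relatives of the members (1 of 8 tested, lower; median 0.05).

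Gadd45a and Runx1 are the members that denervation is best known to induce in the fibre itself. Gadd45a (ENSMUSG00000036390, chromosome 6, 67035096 to 67037457, minus strand) had 113 counts over the air samples and 128 over the smoke samples. It had 0 counts in air replicate 6, where the floor of 3 counts corresponds to 1.04 CPM on the same scale, and 3 in smoke replicate 10. Its lowest, median and highest levels were 0, 2.96 and 4.37 CPM in air and 1.10, 2.64 and 5.16 CPM in smoke. The group means were 2.84 ± 1.18 CPM (SD, n = 11) and 2.87 ± 1.35 CPM (SD, n = 13), and 5 of 13 smoke samples lay above the air mean. The log2 fold change was -0.01 (SE 0.26, 95% interval -0.54 to 0.52, edgeR adjusted p = 0.992), and its sign turned with the setting (0.13 by limma voom). Its relatives stood higher, Gadd45g at 74.1 ± 37.2 CPM (air) and 75.5 ± 22.9 CPM (smoke) (edgeR adjusted p = 0.958) and Gadd45b at 14.3 ± 3.83 and 15.1 ± 3.90 CPM (adjusted p = 0.819).

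Runx1 (ENSMUSG00000022952, chromosome 16, 92601466 to 92826149, minus strand) did not pass the expression filter. It had 103 counts over the air samples, from 4 to 17 per sample, and 114 over the smoke samples, from 3 to 16. In CPM the lowest, median and highest were 1.34, 2.66 and 4.25 in air and 0.956, 2.55 and 3.55 in smoke. The highest value was that of air replicate 3, followed by smoke replicates 7 and 13, and the lowest were those of smoke replicates 4 and 12, so the ranges overlapped over most of their length. The difference of -0.107 CPM (SE 0.342) was within the spread between samples (two-sided permutation p = 0.758), and its sign turned without air replicate 3 (0.0582 CPM), smoke replicate 4 (0.0215 CPM) or smoke replicate 12 (0.0206 CPM). The edgeR fit with no filter gave, in log2, -0.07 (95% interval -0.57 to 0.43, adjusted p = 0.941). Its DNA-binding partner Cbfb stood at 94.3 ± 10.2 CPM under air and 101 ± 10.5 CPM under smoke (edgeR adjusted p = 0.503). Its relatives Runx2 and Runx3 had 15 and 16 counts over the air samples and 13 and 21 over the smoke samples.

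Ncam1 and Agrn act at the surface of the fibre and in the synaptic basal lamina. Ncam1 (ENSMUSG00000039542, chromosome 9, 49502136 to 49798925, minus strand) had 6 to 30 counts per sample in air and 11 to 30 in smoke. The levels were 2.09, 6.38 and 10.4 CPM in air and 3.55, 5.61 and 9.61 CPM in smoke (lowest, median, highest), so the air samples spread around the smoke samples on both sides. The log2 fold change was 0.01 (SE 0.20, 95% interval -0.39 to 0.42, edgeR adjusted p = 0.986), and its sign turned when single samples were left out (range -0.07 to 0.11). Satellite cells and Schwann cells also express Ncam1; the satellite cell marker Pax7 had 4.12 ± 1.56 CPM in air and 4.12 ± 1.24 CPM in smoke (edgeR adjusted p = 0.996).

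Agrn (ENSMUSG00000041936, chromosome 4, 156165290 to 156197488, minus strand, with no annotated overlap) had 24 to 48 counts per sample in air and 22 to 48 in smoke. The levels were 5.83, 9.04 and 13.05 CPM in air and 5.56, 8.70 and 12.2 CPM in smoke (lowest, median, highest), with 5 of 13 smoke samples above the air mean. On the log2 scale smoke over air was -0.07 (SE 0.15, 95% interval -0.37 to 0.23, edgeR adjusted p = 0.876). The exons that make agrin active in clustering receptors are included in the nerve and are not resolved by 3′ counts. Of the 12 genes listed for agrin signalling and the synapse, 8 were tested and 0 were called in either direction (median log2 fold change -0.03, 3 at an unadjusted p under 0.05, against 15.5% of all tested genes). Lamb2, a laminin chain of the synaptic basal lamina, stood at -0.25 on that scale (edgeR adjusted p = 0.115), Dok7, an activator of the receptor kinase MuSK, of -0.43 (adjusted p = 0.0808), and Lrp4, the receptor of agrin, of 0.44 (adjusted p = 0.157). These 3 did not pass, and Musk itself, with 73 and 72 counts over the air and smoke samples, was under the filter.

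Cdkn1c and Sh3kbp1 were better covered. Cdkn1c (ENSMUSG00000037664, chromosome 7, 143458339 to 143461050, minus strand) had 26 to 54 counts per sample in air and 28 to 59 in smoke. The levels were 7.97, 10.1 and 17.0 CPM in air and 8.20, 11.0 and 16.2 CPM in smoke (lowest, median, highest), and 8 of 13 smoke samples lay above the air mean. Smoke over air was 0.10 in log2 (SE 0.13, 95% interval -0.16 to 0.36, edgeR adjusted p = 0.766). The related inhibitors Cdkn1a and Cdkn1b did not pass either, at log2 fold changes of -0.15 (adjusted p = 0.680) and 0.14 (adjusted p = 0.710). Sh3kbp1 (ENSMUSG00000040990, chromosome X, 159627272 to 159978069, plus strand, with no annotated overlap) had 69 to 141 counts per sample in air and 74 to 128 in smoke. The levels were 21.7, 28.7 and 34.8 CPM in air and 20.6, 30.01 and 34.98 CPM in smoke, nearly the same range. Smoke over air came to 0.04 in log2 (SE 0.089, 95% interval -0.14 to 0.22, edgeR adjusted p = 0.882), and its relative Cd2ap was at 0.07 (adjusted p = 0.873). Apart from Agrn and Sh3kbp1, every member overlaps at least 1 annotated gene on the opposite strand (Hdac4 and Hdac9 also on the same strand), and the use of strand in counting is not given in the sources used here.

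The innervated state was read from adult forms that fibres keep while innervated and from fetal forms that are expressed again after denervation. The fetal receptor subunit Chrng had 4 counts over the air samples and 3 over the smoke samples, where the adult subunit Chrne had 524 and 542. Chrng thus made 0.758% of the counts of the pair in air (exact 95% interval 0.207 to 1.93%) and 0.550% in smoke (0.114 to 1.60%). The developmental myosins Myh3 and Myh8 made 0.0286% of the counts shared with Myh4 in air (0.0259 to 0.0314%) and 0.0301% in smoke (0.0277 to 0.0326%). The intervals cover counting error only. Neither share per sample passed a test between groups (two-sided permutation p = 1 and 0.591, Benjamini-Hochberg adjusted p = 1 for each). In both groups the adult forms thus held nearly all counts of these pairs. For the myosins this was given by the level of Myh4, with a mean of 39487 CPM in air against 4.89 CPM for Myh3 and 6.52 CPM for Myh8. A several-fold rise of these 2 would also leave the share very small. The Chrng share rested on 4 and 3 counts, from 2 air and 3 smoke samples, so a difference between the groups was not resolved.

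Of 15 other genes listed as rising after denervation, 11 were tested and 0 were called in either direction; 9 of the 11 log2 fold changes were below 0, the median was -0.14, and 4 had an unadjusted p under 0.05. Over all tested genes 48.4% were below 0 and 15.5% had such a p. The 4 listed genes with an unadjusted p under 0.05 were Trim63, Ampd3 and Myod1, lower under smoke, and Myh8, higher. Ampd3 was at -0.49 (edgeR adjusted p = 0.130). The ubiquitin ligases Fbxo32 and Trim63, which mark proteins of the fibre for breakdown, had 574 ± 105 and 174 ± 39.9 CPM in air and 560 ± 76.8 and 138 ± 20.8 CPM in smoke. Trim63, at -0.33, missed the threshold (edgeR adjusted p = 0.0568), although 0 of 13 smoke samples lay above the air mean. Over all 24 samples, Myod1 was at -0.37 (edgeR adjusted p = 0.190) and Myog, which encodes myogenin, at -0.10 (adjusted p = 0.888), with 128 and 137 counts over the air and smoke samples. Myh3 was at -0.14 (adjusted p = 0.794) and Myh8 at 0.46 (adjusted p = 0.155). Among 10 genes of the innervated fast fibre, all of them tested, 0 were called (median log2 fold change 0.0044). Myh4, Pvalb and Eno3, the most abundant of these, were at 0.16, -0.06 and 0.04 (edgeR adjusted p = 0.228, 0.727 and 0.763).

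**Figure D3:**
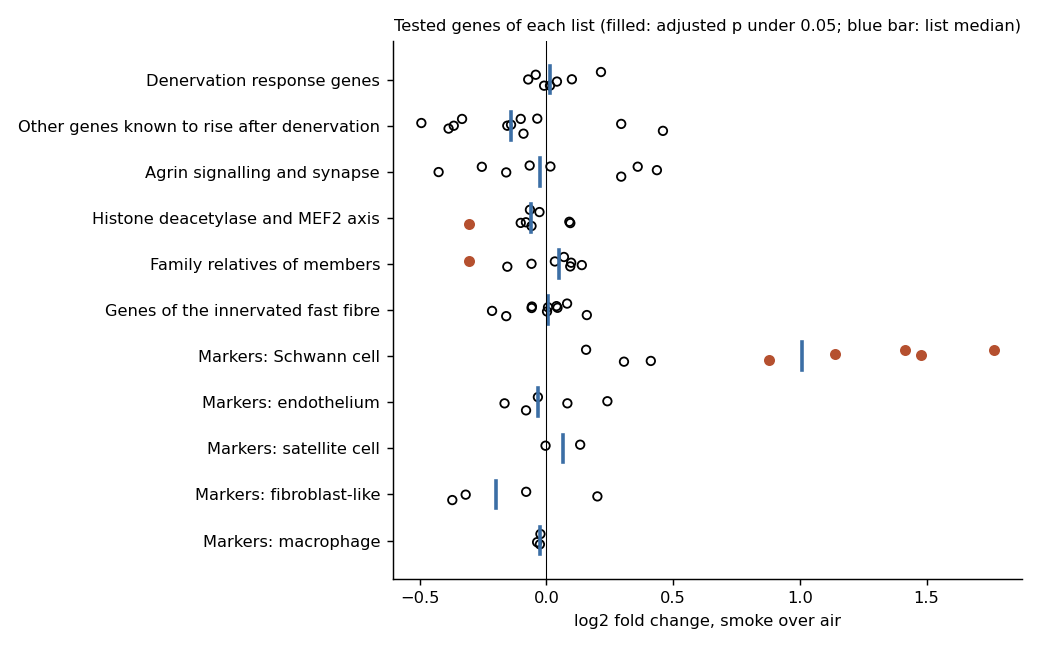
Log2 fold changes, smoke over air (horizontal axis), are shown for the tested genes of each list, with 1 circle per gene, filled where the adjusted p was under 0.05, and a blue bar at the list median. The 7 tested denervation response genes lie between -0.07 and 0.22 with none filled; filled circles stand for Hdac5, which is in 2 lists, and for 5 Schwann cell markers.

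Markers of Schwann cells, which wrap the nerve, were high in some of the smoke samples, and their summed level was also high in air replicate 6. Of 10 listed, 8 were tested and 5 were called higher under smoke (Ncmap, Gldn, Prx, Drp2 and Pmp22; median log2 fold change 1.01 over the 8). The summed level of the 10 ran from 138 to 329 CPM in air and from 175 to 485 CPM in smoke, and no marker was at 0 throughout. The 329 CPM was that of air replicate 6, and the next highest air sample, replicate 10, had 196 CPM. Air replicate 6 was kept in the fits that left out smoke samples high in these markers. Gldn, which overlaps an antisense gene and encodes gliomedin, a Schwann cell protein of the nodes of Ranvier, averaged 1.94 ± 0.847 CPM (air) and 4.43 ± 2.70 CPM (smoke; edgeR adjusted p = 0.0261). In smoke replicates 2, 10, 12 and 13 all 5 called markers stood above the highest air sample, and in the other smoke samples 0 to 3 did, with 3 in replicate 6, whose summed level of 350 CPM also exceeded every air sample. Pmp22, a membrane protein of the sheath around axons, had 142, 140 and 116 CPM in smoke replicates 2, 10 and 12 and 69.3 CPM in replicate 13, against medians of 32.5 CPM in air and 38.0 CPM in smoke. Because these samples were chosen by the markers themselves, the markers' values without them are a description, with no test. Over the 7 markers that passed the filter, the median log2 fold change was 0.28 without replicates 2, 10 and 12, 0.30 without these and 13, and 0.20 without these and 6 and 13. Gldn did not pass the filter in these fits. Over all 24 samples, Ncmap, Prx, Drp2 and Pmp22 were no longer called by limma voom or with robust dispersion, nor with the replicate block over 22 samples, in which Gldn did not pass the filter, and Drp2, Pmp22 and Prx also lost the call in the block's samples fitted without the block and in 14, 14 and 9 of the 24 fits that left out a sample. The part of these cells in the members' levels was not tested. Of the 7 tested members, Agrn had the highest correlation with the summed Schwann markers after removal of group means over 24 samples (Pearson's r 0.35, permutation p = 0.0793, adjusted p = 0.370; Spearman's rho 0.35, permutation p = 0.0883, adjusted p = 0.468; 14 relations). With the 2 most extreme samples of the marker sum left out, r was 0.20 for Agrn, and it went from -0.24 to -0.0086 for Gadd45a, so these values rested in part on those samples. For Ncam1 it was 0.25 with them and 0.21 without. Satellite cell, endothelial, fibroblast-like and macrophage markers had 0 called genes among 2, 5, 4 and 3 tested.

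No pair of members passed a test of varying together within the groups. Over 21 pairs of the 7 tested members, deviations from the group means of log2 CPM over 24 samples gave Pearson's r from -0.56 to 0.33 with a median of -0.03, and 0 pairs passed the Benjamini-Hochberg threshold (permutation p, adjusted over the 21 pairs, from 0.141 to 0.984). The pair with the strongest relation was Gadd45a and Ncam1, at r -0.56 (permutation p = 0.00672, adjusted p = 0.141) and Spearman's rho -0.50 (permutation p = 0.00908, adjusted p = 0.191). It was -0.51 within air and -0.68 within smoke, and -0.40 when the 2 samples most distant from the Gadd45a median were left out. Myog, tested against the 7 members in the family of 14 relations, had its largest r with Cdkn1c (-0.41, permutation p = 0.0507, adjusted p = 0.370; rho -0.37, permutation p = 0.0812, adjusted p = 0.468; r -0.20 without 2 samples) and Dach2 (0.40, permutation p = 0.0577, adjusted p = 0.370; rho 0.34, permutation p = 0.119, adjusted p = 0.468; r 0.28 without 2 samples).

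How much of each gene's spread counting alone would give was compared with the spread measured. Between air samples the coefficient of variation was 11.8% for Hdac4 and 15.7% for Sh3kbp1, against 5.91% and 9.89% from counting error alone. Ncam1 was at 44.6% against 21.8% in air and at 28.9% against 21.9% in smoke. Runx1 varied about as much as counting error alone would give, at 31.3% against 32.7% in air and 34.3% against 33.8% in smoke. Dach2 was below it in air (24.01% against 33.3%) and above it in smoke (40.3% against 31.4%). Hdac9 had the widest spread of the members in both groups, at 56.6% against 39.6% in air and 48.4% against 35.4% in smoke.

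**Figure D4:**
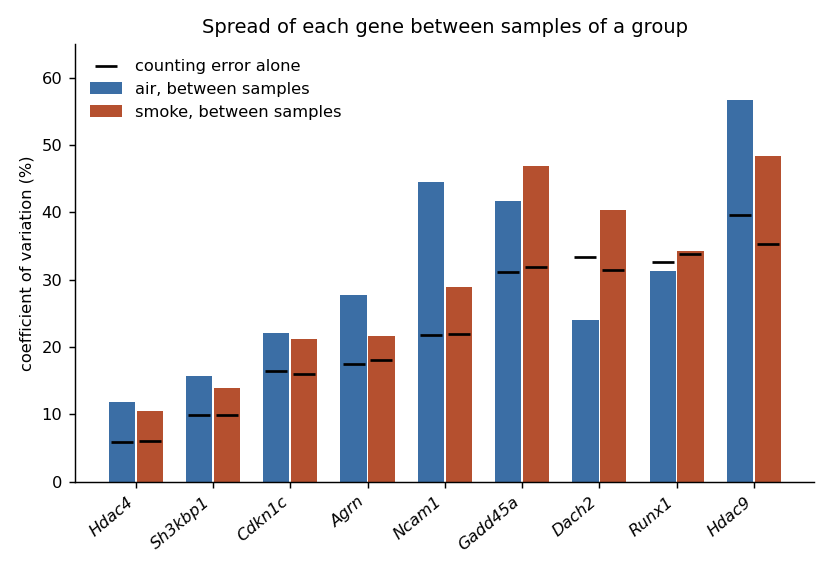
Bars give the coefficient of variation of CPM between samples in percent (vertical axis) for each gene in air (n = 11) and smoke (n = 13), and black dashes the value that counting error alone would give. The spread is smallest for Hdac4 in both groups, and Ncam1 in air lies farthest above its dash in percentage points.

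The tested genes whose pattern over 24 samples was most like that of a member, by Pearson's r of the same deviations, are given as a description, since the highest of 10159 values is large by selection. Ncam1 had the closest match, B4galt6, a galactosyltransferase gene, at r 0.79. For Hdac4 it was Anapc13 (0.75), for Cdkn1c Synpo (0.73), for Gadd45a Lix1l (0.71), for Agrn Gstt2 (0.70), for Dach2 Tspan2 (0.68) and for Sh3kbp1 Ccdc191 (0.68). Next in rank were Gm4924 and Col16a1 for Ncam1, Sdccag8 and Psmf1 for Hdac4, Ap2a2 and Ndrg2 for Cdkn1c, Inpp5b and Taf8 for Gadd45a, Tns2 and Aasdh for Agrn, Map4k2 and Plekha6 for Dach2, and Aldh9a1 and Aqp4 for Sh3kbp1. No member and none of the other listed genes was among these matches.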

How the data were processed

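Plantaris RNA of 24 samples was measured by 3′-end sequencing. The table the authors deposited holds raw read counts by Ensembl ID, with a column for each sample, per the file headers. The submitters' processing notes name STAR, DESeq2 and the build mm9; counting tool, annotation, strand use and molecular identifiers are not given in the sources used here. Symbols and coordinates were looked up by ID in GENCODE M21 (GRCm38, 1-based), which may differ from the authors' annotation; 99.1% of IDs matched. Promoter sequences are RefSeq's (GRCm38.p6).

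Genes were filtered with filterByExpr (minimum count 10), scaled by TMM and tested with edgeR 4.0.16 (quasi-likelihood F-test, R 4.3.3) over all 24 samples, with p-values adjusted over all tested genes. SEs and 95% intervals come from that fit. Members under the filter were tested by two-sided permutation of CPM (100000 resamples). A floor of 3 counts was 0.665 to 1.15 CPM on TMM-scaled libraries, the scale of all levels. Correlations used log2 CPM (prior count 2) with permutations within groups. The procedure was tested on simulated data. DESeq2 1.42.0, limma 3.58.1 and the other alternatives are in the closing section.

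The members and lists were chosen with earlier results of these data known. Named were all members, called genes of the companion lists or otherwise their 3 most abundant, fetal and adult forms, and the 3 genes most alike each tested member. Some listed genes are not reported here and are left out of the lists' counts and sums. Ampd3, Lrp4, Musk, Myog, Pax7, the uncalled relatives of members, the Hdac4 to Hdac5 ratio, the fits without the smoke samples high in Schwann markers and the relations with Myog and Schwann markers were chosen after values were seen. Over 133 pairs within groups, chi-square per gene was 2.33 to 16.0, above sampling noise in every pair, and each sample was counted singly.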

Additional observations from a re-analysis of the deposited data

How the results depend on the processing

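Among the members that passed the filter in each fit, the number called was 0 under the alternatives run (RLE and upper-quartile scaling, no expression filter, a CPM filter, DESeq2, limma voom, robust dispersion, removal of the 10 most abundant genes, the replicate block) and in the 24 fits that left out a sample. Dach2 did not pass the filter in 7 of these 24 fits or without the 10 most abundant genes. Without smoke replicates 2, 10 and 12 the number of genes called over all genes was 146, without these and replicate 13 it was 203, and without these and replicates 6 and 13 it was 116, in fits added after the data were seen and with fewer samples; 0 members were called in these 3 fits, and Sh3kbp1 turned from 0.04 to -0.0094 in the last. Over all genes, 195 were called, against 323 by DESeq2, whose cause was not tested, and 141 to 254 when samples were left out. Gadd45a turned from -0.01 to 0.13 by limma voom and ran from -0.13 to 0.072 when samples were left out; Ncam1 ran from -0.070 to 0.11. DESeq2 gave no adjusted p for Gadd45a and Dach2.

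The replicate numbers did not pair the samples: deviations of same-numbered samples correlated at a mean r of -0.0059 (-0.28 to 0.14, 11 pairs) against 0.0011 over 132 other pairs, and 2 of 11 air samples correlated best with their own number. With the replicate block over 22 samples 138 genes were called and 0 members (Hdac4 -0.06, edgeR adjusted p = 0.774); Gadd45a and Dach2 did not pass the filter there. The same samples without the block, a fit added after the data were seen, called 146 genes lower and 88 higher, against 85 and 53 with it.

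The 2 members under the filter kept their direction and did not pass under CPM on total counts or log2 CPM. In tests leaving out 1 sample each, chosen with the values known, neither passed, with differences from 0.274 to 0.678 CPM for Hdac9 and from -0.233 to 0.0582 CPM for Runx1, which turned without air replicate 3 (0.0582), smoke replicate 4 (0.0215) and smoke replicate 12 (0.0206). In addition, shares from pooled counts moved by less than 1 SD, and 0 pairs of members passed with a prior count of 0.5. The 4 lowest members had 70 to 132 counts per group, where counting error alone gives a coefficient of variation of 31.2 to 39.6%, and the spread between samples was 24.01 to 56.6%. Differences within their intervals were not resolved.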
